A study of Homo sapiens with 6 samples.

Results

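The ID genes ID1, ID2, ID3 and ID4 were followed in Hs578T, an established line of mesenchymal breast cancer cells, before and after induction of the homeobox transcription factor HOXA5. Every probe set that the platform's table names with 1 of these symbols was taken, whatever its values, which gave 7 of 22283 probe sets: 1 for ID1, 2 for ID2, 1 for ID3 and 3 for ID4. They stand for 4 of the 11963 genes with a probe set of 1 symbol. Of the 7, 5 exceeded the floor on 2 arrays or more and were tested; the other 2, both of ID4, were at the floor on all arrays and are given as levels only. Probe set 213931_at is listed for both ID2B and ID2 and was therefore not counted as a member.

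All arrays hold RNA of the same HOXA5-inducible Hs578T line. The 3 groups were uninduced cells (0 h) and cells induced for 6 h or 9 h, with 1 array of each in experiments 1 and 2, so that n = 2 arrays per group. The agent that switches HOXA5 on, its dose and the clonal origin of the line are not given in the sources used here, and 0 arrays of uninduced cells at 6 h or 9 h were among the samples. Induction and time in culture therefore cannot be told apart. HOXA5 has 0 probe sets listed under its symbol alone in the table used here, and sets with several symbols were not searched for it. The level of HOXA5 itself was therefore not analysed here.

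ID proteins are helix-loop-helix proteins without the basic region that contacts DNA. They bind the ubiquitous E proteins (TCF3, TCF4 and TCF12) and keep them from pairing with tissue-specific basic helix-loop-helix factors, and so hold back differentiation and favour the cell cycle. ID1, ID2 and ID3 are classical early targets of BMP signalling through SMAD1, SMAD5 and SMAD9, and TGF-beta can lower ID1 through SMAD3 and ATF3. In breast cancer ID1 and ID3 are known for their part in metastatic growth, and ID4 for its expression in basal-like cells.

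The sequence just before the start of transcription is shown for ID1, ID3 and ID2, the members with signal on every array, because the results turn on them. The stretches are 250 bases of RefSeq sequence (GRCh38.p14) that end at the base before the annotated gene start, read 5′ to 3′ on the gene's strand; capitals mark each CCAAT box (CCAAT, or ATTGG on the other strand) and each TATA core (TATAAA, either strand). They lie at chr20:31605039-31605288 (plus strand) for ID1, chr1:23559502-23559751 (minus strand) for ID3 and chr2:8681806-8682055 (plus strand) for ID2.
ID1: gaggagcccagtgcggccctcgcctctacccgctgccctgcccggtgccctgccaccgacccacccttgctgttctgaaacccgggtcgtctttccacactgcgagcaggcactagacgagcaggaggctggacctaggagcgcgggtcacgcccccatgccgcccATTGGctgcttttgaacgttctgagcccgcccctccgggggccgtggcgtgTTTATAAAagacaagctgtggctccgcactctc
ID3: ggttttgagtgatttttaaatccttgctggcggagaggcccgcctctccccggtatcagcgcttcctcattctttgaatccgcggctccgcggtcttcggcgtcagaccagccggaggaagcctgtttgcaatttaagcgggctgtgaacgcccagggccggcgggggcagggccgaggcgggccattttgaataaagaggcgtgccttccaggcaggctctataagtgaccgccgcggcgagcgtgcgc
ID2: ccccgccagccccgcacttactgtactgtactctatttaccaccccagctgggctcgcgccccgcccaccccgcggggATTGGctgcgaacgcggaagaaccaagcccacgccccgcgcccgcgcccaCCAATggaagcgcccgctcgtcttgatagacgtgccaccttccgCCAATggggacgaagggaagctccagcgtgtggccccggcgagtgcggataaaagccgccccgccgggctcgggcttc

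The ID1 stretch holds 1 CCAAT box, 84 bases before the start, and 2 overlapping TATA matches on opposite strands, 33 and 31 bases before it. ID2 has 3 CCAAT boxes and 0 TATA matches, and ID3 has 0 of either. Of 35116 promoters of the same length in the table, 32.0% hold CCAAT and 10.7% hold TATAAA on either strand. GC content was 66.0% for ID1, 62.0% for ID3 and 69.2% for ID2, against a median of 58.0% over all. The core that homeobox proteins such as HOXA5 prefer (TAAT, either strand) was in 0 of the 4 ID stretches and in 47.4% of all, and the GC-rich SMAD site GGCGCC was likewise in 0 of 4 and in 16.4% of all. The EGR site GCGNGGGCG was in the stretches of ID2 and ID4, 2 of 4, and in 8.42% of all; in ID4 it shares bases with the GC box GGGCGG. These are matches of letters in a short window and say nothing on binding.

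Brightness varied from array to array, with medians of the deposited intensity between 18.7 (6 h, experiment 1) and 95.8 (0 h, experiment 1), so the values were quantile normalized and every change below is relative to the whole array. The floor, below which values were set equal, was 12.7 intensity units. Control probe sets for ribosomal RNA read 1.46 to 3.93 times the array median in experiment 1 and 0.176 to 0.501 times in experiment 2. Of 10 mesenchymal markers such as VIM and FN1, 9 were above the floor on all arrays. Of 10 luminal epithelial markers, 6 were above it on all arrays (ESR1, GATA3, ERBB3, FOXA1, KRT8 and KRT18), CDH1 on 3 arrays, and PGR, KRT19 and EPCAM on 0. The labels describe 2 batches of RNA and no further replication, so the p-values measure the spread between these 6 arrays only, and their small number sets the precision. Both comparisons with 0 h use the same 2 uninduced arrays.

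ID1 and ID3 had higher levels after induction in experiment 1 and lower levels in experiment 2 relative to the whole array, though at 6 h unscaled values were lower in both, and their group means differed by less than the spread between arrays. ID2 was higher at 9 h than at 0 h in both experiments on its brighter probe set, though without scaling only in experiment 1, and ID4 lay at or near the floor. No ID probe set passed the threshold (limma, Benjamini-Hochberg adjusted p of 0.05) in any comparison, where 0% of the 18360 tested probe sets passed at 6 h against 0 h, 0% at 9 h against 0 h and 0% at 9 h against 6 h. At an unadjusted p under 0.05 limma called 875, 1360 and 968 probe sets (4.77%, 7.41% and 5.27%); of the ID probe sets only one of ID4, described below, was among them, in both comparisons with 0 h. When the model had a term for the experiment, the adjusted threshold was passed by 0, 66 and 0 probe sets (0%, 0.359% and 0%), none of an ID gene.

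**Figure D1:**
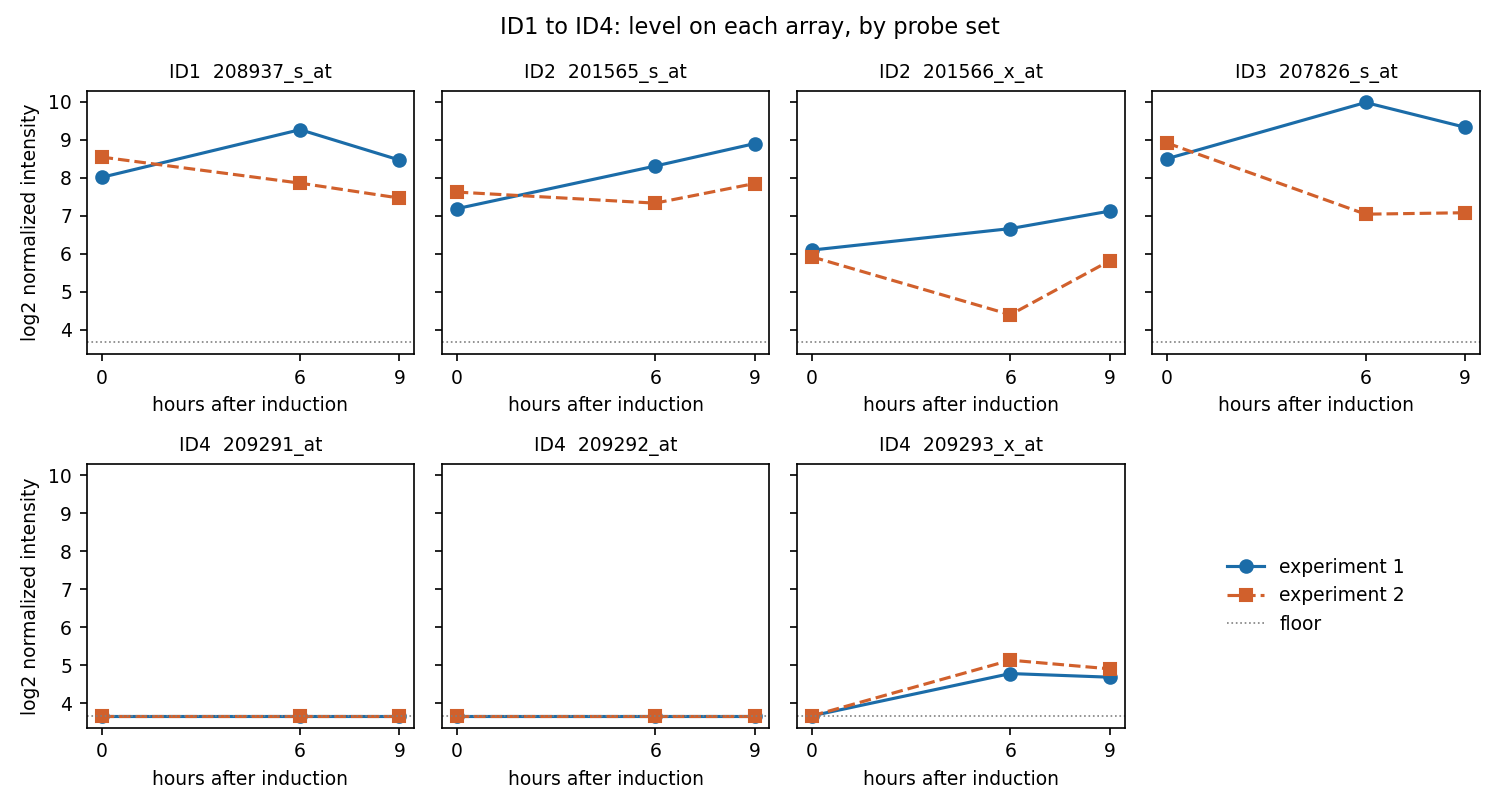
Level of each of the 7 ID probe sets (log2 of the quantile-normalized intensity, vertical) at 0 h, 6 h and 9 h (horizontal); each point is 1 array, with circles and full lines for experiment 1, squares and broken lines for experiment 2, and a dotted line at the floor (3.67). ID1 and ID3 cross between the experiments after 0 h, the brighter ID2 set (201565_s_at) runs in parallel from 6 h to 9 h, and 2 of the 3 ID4 probe sets lie on the floor throughout.

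ID3, the member with the widest spread, was read by probe set 207826_s_at. Its normalized intensity in experiment 1 was 362 at 0 h, 1007 at 6 h and 642 at 9 h. In experiment 2 it was 481 at 0 h, 132 at 6 h and 135 at 9 h. Both uninduced arrays thus lay between the induced arrays of the 2 experiments, and the groups overlapped at both times. Within experiment 1 ID3 was 2.79-fold higher at 6 h and 1.78-fold higher at 9 h than at 0 h, while within experiment 2 it was 3.66-fold and 3.56-fold lower.

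The mean log2 change of ID3 was -0.20 ± 1.01 (standard error, n = 2 arrays per group) at 6 h, with a 95% confidence interval from -2.57 to 2.17 and a limma adjusted p = 0.992. At 9 h it was -0.50 ± 1.01 (interval -2.87 to 1.87, limma adjusted p = 0.952). The interval at 6 h covers a 4-fold fall as well as a 4-fold rise, so these arrays do not settle a direction. The experiments' log2 changes differed by 3.35 at 6 h and 2.66 at 9 h, more than in 99.6% and 99.4% of the tested probe sets. On the induced arrays themselves experiment 1 exceeded experiment 2 by 7.65-fold at 6 h and 4.75-fold at 9 h, and 0.185% and 0.833% of the tested probe sets had a larger difference in that direction. At 0 h the order was the other way, experiment 1 being at 0.751 times the level of experiment 2.

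ID1, the BMP target named for inhibition of DNA binding, was read by probe set 208937_s_at. Its normalized intensity was 257, 614 and 353 at 0 h, 6 h and 9 h in experiment 1, and 373, 232 and 177 in experiment 2. As for ID3, the highest value was the 6 h array of experiment 1 and both induced arrays of experiment 2 were the lowest, so the groups overlapped at both times. Within experiment 1 ID1 was 2.39-fold higher at 6 h and 1.37-fold higher at 9 h than at 0 h, and within experiment 2 it was 1.61-fold and 2.11-fold lower. Group means on the log2 scale were 8.27 ± 0.38 (SD, n = 2) at 0 h, 8.56 ± 0.99 at 6 h and 7.96 ± 0.71 at 9 h, so neighbours in that order did not differ beyond their spread. The log2 change was 0.28 ± 0.54 (SE) at 6 h (interval -0.98 to 1.55, limma adjusted p = 0.976) and -0.31 ± 0.54 at 9 h (interval -1.57 to 0.95, limma adjusted p = 0.938). From 6 h to 9 h ID1 was lower in both experiments, by log2 changes of -0.80 and -0.39, a direction that 25.9% of all tested probe sets had, with a mean of -0.60 ± 0.54 (limma adjusted p = 0.932); without scaling between arrays the mean was 0.39.

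ID2, which in addition to E proteins is known to bind the retinoblastoma protein, was read by 2 probe sets that share their target transcript. On the brighter one, 201565_s_at, the normalized intensity was 145, 316 and 476 at 0 h, 6 h and 9 h in experiment 1 and 197, 161 and 230.1 in experiment 2. Both 9 h arrays lay above both 0 h arrays, a separation that 18.3% of all tested probe sets had in that direction; in deposited units the 9 h array of experiment 2 (191.2) lay below both 0 h arrays (272.0 and 211.4). The 9 h level of ID2 was 3.27 times its 0 h level in experiment 1 and 1.17 times in experiment 2. The mean log2 change was 0.97 ± 0.48 (interval -0.15 to 2.09), with an unadjusted p = 0.0801 and an adjusted p = 0.709 by limma, and without scaling it was 0.46, from 1.06 in experiment 1 and -0.14 in experiment 2. The 9 h array of experiment 1, which read the highest, also had the highest ratio of 3′ to 5′ control signal, at 1.82 for ACTB (0.918 to 1.09 on the other arrays) and 1.31 for GAPDH (0.863 to 1.12); its part in the result was not tested. When the model had a term for the experiment, the unadjusted p was 0.0250, where 13.9% of all tested probe sets lay under 0.05, and the adjusted p was 0.277 by limma.

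The dimmer ID2 probe set, 201566_x_at, carries the suffix that Affymetrix gives to sets whose probes can also match other transcripts. It read 68.4, 101 and 139 in experiment 1 and 60.5, 21.1 and 56.3 in experiment 2 at 0 h, 6 h and 9 h. The 2 probe sets had a Pearson r of 0.76 over the 6 arrays, and both were higher at 9 h than at 6 h in each experiment, as 27.1% of all tested probe sets were. Their changes at 6 h against 0 h had opposite signs, with log2 changes of 0.42 ± 0.48 for the brighter and -0.48 ± 0.79 for the dimmer set (limma adjusted p = 0.970 and 0.976), and with overlapping groups on both. At 9 h the dimmer set had 0.46 ± 0.79 (limma adjusted p = 0.938), by 1.02 in experiment 1 and -0.10 in experiment 2. Probe set 213931_at, which ID2 shares with ID2B in the table, had a log2 change of 1.04 ± 0.50 at 9 h, with both 0 h arrays at the floor. It was 1.77 in experiment 1 and 0.30 in experiment 2. This set exceeded the floor only on induced arrays, so a difference from 0 h was built in.

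ID4 was at the limit of detection. On 209291_at and 209292_at all 6 arrays lay below the floor, with normalized intensities from 1.23 to 10.6 and from 1.87 to 8.96. The third set, 209293_x_at, of the cross-matching kind, read 11.1, 27.5 and 25.8 in experiment 1 and 4.82, 35.1 and 29.98 in experiment 2 at 0 h, 6 h and 9 h. Both uninduced arrays were below the floor and all 4 induced arrays above it. Wherever the floor lay, 16.1% of all tested probe sets had both 6 h arrays above both 0 h arrays. For the 9 h arrays the share was 18.3%. With this scaling and floor the ID4 level was 2.44-fold higher at 6 h and 2.18-fold higher at 9 h than the floor value that stands for 0 h. These folds depend on the processing and are no lower limit. Without scaling the mean log2 change was 0.18 at 6 h and 0.68 at 9 h, and with the floor at the 10th percentile it was 2.09 and 1.92. The log2 change was 1.29 ± 0.37 at 6 h (unadjusted p = 0.00931, adjusted p = 0.969 by limma) and 1.13 ± 0.37 at 9 h (unadjusted p = 0.0173, adjusted p = 0.611 by limma). This set passed the filter on low values only through its induced arrays, so a difference from 0 h was built in, and the other 2 ID4 sets showed no signal beside it. In unscaled values its 6 h change in experiment 1 was -1.01.

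ID1, ID2 and ID3 together had 4 probe sets above the floor on all 6 arrays. At 6 h against 0 h all 4 were higher in experiment 1 and lower in experiment 2, a pattern that 20.3% of all tested probe sets had; without scaling all 4 were lower in both. At 9 h the probe sets of ID1 and ID3 and the dimmer one of ID2 had it, 3 of 4, against 17.1% of all; without scaling ID1 was lower in both, and with trimmed mean scaling the ID2 set was higher in both (0.98 and 0.12). ID3 at 6 h was at least 2-fold higher in 1 experiment and at least 2-fold lower in the other, which 1.19% of the tested probe sets were in either order. The members are few, 2 of the sets share a gene and all share the same arrays, so these counts are a description, and the pattern was singled out after the values were seen. ID1 and ID3 had a Pearson r of 0.92 over the 6 arrays, the brighter ID2 set had 0.49 with ID1 and 0.57 with ID3, the dimmer one 0.56 and 0.80, and the ID4 set had -0.14 and -0.33.

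**Figure D2:**
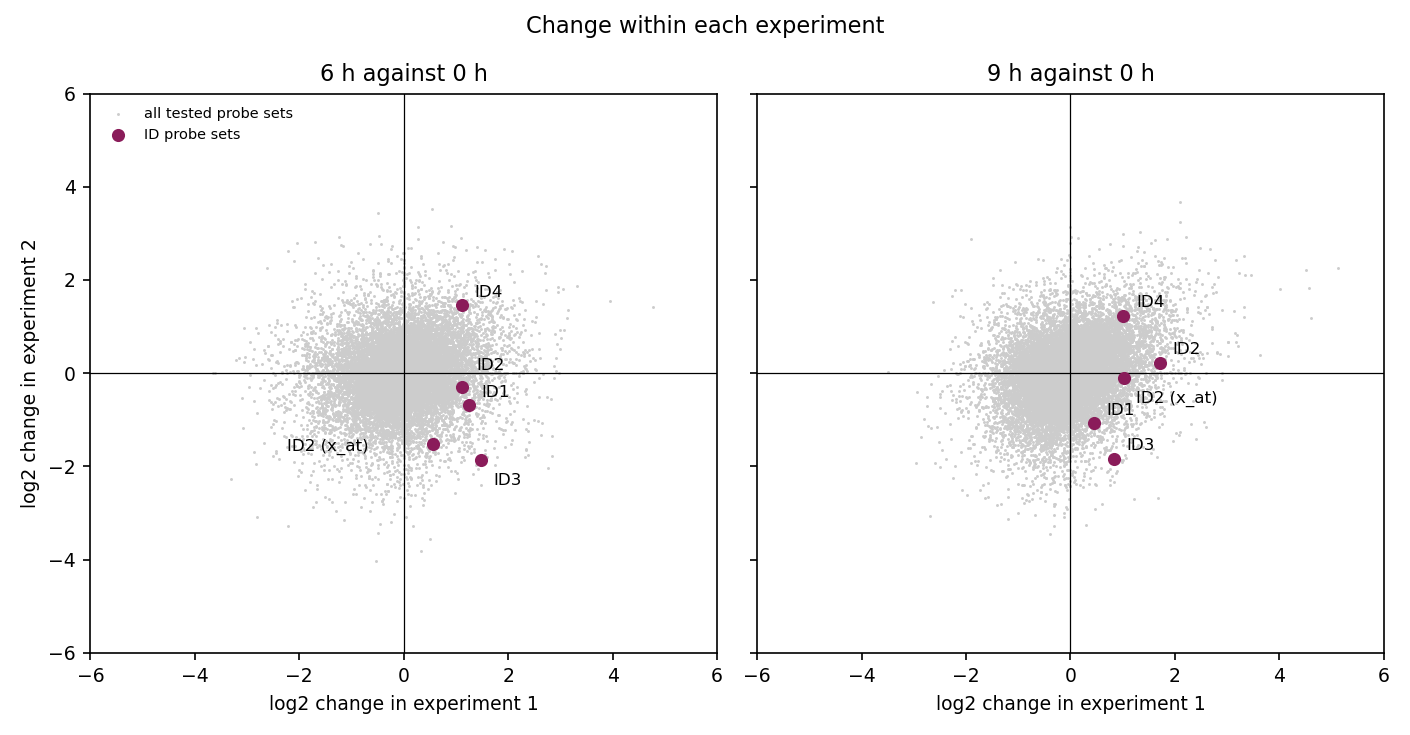
Log2 change within experiment 1 (horizontal) and within experiment 2 (vertical) for 6 h against 0 h (left) and 9 h against 0 h (right); grey points are all 18360 tested probe sets and the 5 filled circles are the tested ID probe sets, with ID2 (x_at) the dimmer ID2 set. ID3 lies at 1.48 and -1.87 at 6 h and at 0.83 and -1.83 at 9 h, where experiment 1 is higher and experiment 2 lower, and ID4 lies above 1 on both axes.

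Several array-level values also ran with the experiment. Besides ribosomal RNA, the cre hybridization controls, as a multiple of the array median in order of time, read 69.4, 241 and 190.0 in experiment 1 against 53.2, 42.3 and 56.4 in experiment 2. The summed level of the 10 luminal markers was 2177 to 3856 in experiment 1 and 1181 to 1304 in experiment 2, with most of it from the keratin KRT18, and the uninduced array of experiment 1 had the highest sum. The summed mesenchymal markers stayed between 19761 and 20812. Of 6 measured markers of endothelial cells, which express ID1 and ID3 strongly, PECAM1 was above the floor on all arrays (28.3 to 46.3), KDR and VWF on 2 arrays each, TEK on 1 and CDH5 and TIE1 on 0, and the sum ran from 103 to 112. The sum of 7 leukocyte markers, mostly the actin bundler LCP1, was 590 to 670 in experiment 1 and 768 to 1163 in experiment 2. Of these LCP1 and CD3E (25.1 to 89.7) were above the floor on all arrays, CD2 on 5, PTPRC on 4, ITGB2 on 2, CD14 on 1 and CD52 on 0. That of 8 nerve and muscle markers ran from 166 to 216. The part of the controls and of these markers in the ID values was not tested.

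The lot line in the label of the 6 h array of experiment 2 names experiment 1, while the title and the sentence on the sample name experiment 2. By its level of ID3, 132, this array lay next to the 9 h array of experiment 2 (135) and far from the 6 h array of experiment 1 (1007). The dimmer ID2 set (21.1) and 209293_x_at of ID4 (35.1) also lay nearest that 9 h array (56.3 and 29.98). By ID1 (232) and the brighter ID2 set (161) it lay nearest the 0 h array of experiment 1 (257 and 145). Which experiment the array belongs to was not tested. With the lot line in place of the experiment as a term in the model the log2 change of ID3 at 6 h was -0.66 and that of ID1 was 0.17. Neither passed (limma adjusted p = 0.875 and 0.946).

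The scaling between arrays bears on every ID value at 6 h. Without it, the median log2 change of all tested probe sets was -1.34 at 6 h and -0.56 at 9 h, and ID1 had -1.25 at 6 h in place of 0.28 and ID2, on its brighter set, -1.10 in place of 0.42. In deposited units ID1 went from 484.5 to 209.5 between 0 h and 6 h in experiment 1 and from 411 to 168.6 in experiment 2, lower in both. ID3 read 689.8, 359 and 782 in experiment 1 and 530.0, 98.0 and 115 in experiment 2 at 0 h, 6 h and 9 h, so that at 9 h its opposite course in the experiments was there without scaling too (0.18 and -2.20 on the log2 scale). ID1 at 9 h without scaling was lower in both, by -0.23 and -1.48. Scaling by trimmed means gave within-experiment changes of 1.52 and -1.81 for ID3 and 1.25 and -0.66 for ID1 at 6 h.

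**Figure D3:**
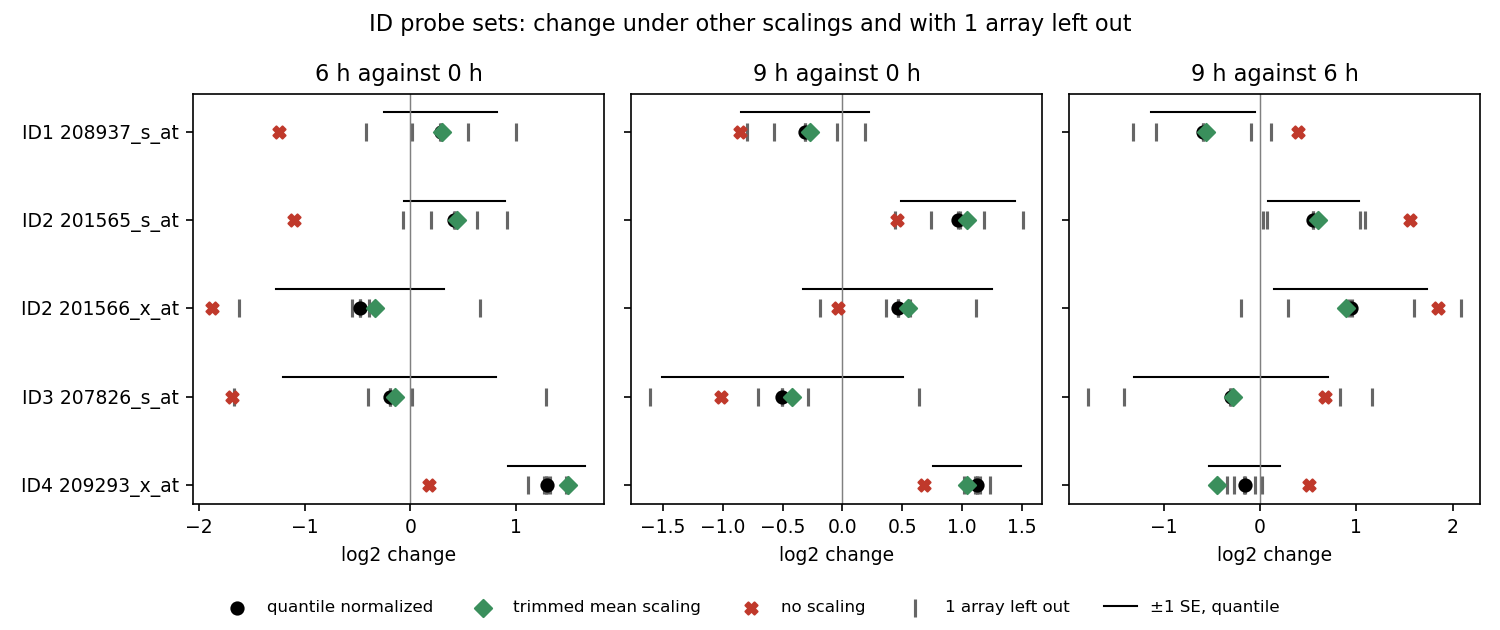
Log2 change (horizontal) of the 5 tested ID probe sets in the 3 comparisons, with quantile normalization (circles; lines above show 1 standard error to each side), trimmed mean scaling (diamonds), no scaling (crosses) and with each of the 6 arrays left out in turn (vertical ticks). Trimmed mean scaling lies close to quantile normalization, while unscaled values sit to the left against 0 h (ID1 at -1.25 at 6 h), and the ticks of ID3 spread from -1.67 to 1.28 at 6 h.

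Genes around the ID proteins were described by lists, with 1 probe set per gene, the brightest. The lists were E proteins, their tissue partners, HES, HEY and BHLHE repressors, BMP ligands, receptors, SMADs, antagonists, other BMP response genes, regulators of ID transcription, and cell cycle and angiogenesis genes tied to ID function. Of their 97 tested genes 0 passed by limma without the experiment as a term. At an unadjusted p under 0.05 limma called 8 at 6 h and 14 at 9 h against 0 h (8.25% and 14.4%, against 4.22% and 7.97% of all tested genes). The lists were chosen with earlier results of these data known, so these shares are a description only. With the experiment as a term 2 genes passed at 9 h, EGR1 and ATF3, both higher. Of all 10444 tested genes 43 then passed as higher and 5 as lower. For comparison, the log2 changes of all tested genes had their median at 0.01 (6 h) and -0.02 (9 h), and 28.1% of them were higher and 29.5% lower in both experiments at 9 h. Without scaling the 9 h median was -0.58 over all tested genes and below 0 for each list except the regulators.

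The E proteins, the direct targets of ID binding, were measured by 3 genes. TCF3, which encodes E12 and E47, was read by a probe set of the cross-matching kind. In order of time TCF3 read 401, 406 and 172 in experiment 1 and 382, 235 and 186 in experiment 2, with both 9 h arrays below the other 4. Of all tested probe sets 19.1% had both 9 h arrays below both 0 h arrays, and 15.1% had them below both 6 h arrays. Without scaling TCF3 had a mean log2 change of -1.71 at 9 h against 0 h and 0.20 at 9 h against 6 h. Its log2 change at 9 h was -1.13 ± 0.33 (limma adjusted p = 0.590), and 9 of its 10 probe sets had that sign. TCF4 had 0.58 ± 0.50 and TCF12 0.07 ± 0.25, a sign that 1 of 2 tested TCF12 probe sets had. Of 24 tissue partners 8 were tested, with 1 higher and 2 lower in both experiments at 9 h and a median of -0.03. TWIST1, an inducer of mesenchymal traits, had log2 changes of -0.18 in experiment 1 and -1.85 in experiment 2, with its 9 h array of experiment 2 at the floor. Among 6 tested HES, HEY and BHLHE repressors 3 were higher and 0 lower in both experiments at 9 h. HES1, the Notch target, was higher in experiment 1 (1.30) and nearly level in experiment 2 (0.03), and BHLHE40 had 0.91 and 0.80.

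Of the BMP ligands 11 were tested, and 6 were higher and 1 lower in both experiments at 9 h (median 0.22, against -0.35 unscaled). BMP2, a strong inducer of ID genes, read 23.5, 58.4 and 79.3 in experiment 1 and 54.8, 59.4 and 78.4 in experiment 2, a log2 change at 9 h of 1.14 ± 0.51 (limma adjusted p = 0.689). GDF2 had 0.27 and 2.26 in the experiments and BMP3 -0.97 and -1.26, each with 1 array at the floor. The 10 tested receptors had a median of -0.03, with 2 higher and 4 lower in both; the co-receptor ENG had -0.57 ± 0.36. Of 15 tested antagonists and SMAD brakes 5 were higher and 4 lower in both (median 0.22, against -0.32 unscaled), among them the ubiquitin ligase SMURF1 with 0.56 ± 0.47 and the BMP antagonist NBL1 with -0.83 ± 0.32.

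Among the SMADs, which carry the signal to the ID promoters, 7 of 8 were tested and 5 were higher and 1 lower in both experiments at 9 h (median 0.32, against -0.22 unscaled). The BMP mediators SMAD1 and SMAD5 had log2 changes of 0.23 ± 0.43 and 0.44 ± 0.42, the shared partner SMAD4 0.32 ± 0.32, and the TGF-beta mediators SMAD2 and SMAD3 0.31 ± 0.27 and -0.48 ± 0.32. The inhibitory SMAD6, itself a BMP target, read 63.1, 135 and 131 in experiment 1 and 48.2, 47.1 and 66.8 in experiment 2. Like ID1 it was higher at 6 h in experiment 1 (1.10) and not in experiment 2 (-0.03), on the probe set that stood for it; 3 of its 4 sets had the same sign at 9 h. SMAD7 read 91.1, 225 and 130.3 in experiment 1 and 121, 225 and 187 in experiment 2, above its 0 h level on all induced arrays after normalization. Of all tested probe sets 16.1% had both 6 h arrays above both 0 h arrays, and 18.3% had both 9 h arrays above them. Without scaling the mean log2 change of SMAD7 was -0.43 at 6 h and 0.016 at 9 h. None of these SMADs passed at 9 h (limma adjusted p from 0.769 to 0.943).

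Of 10 tested genes on the list of other BMP response genes, which repeats SMAD6, SMAD7, HEY1 and BAMBI, 7 were higher and 1 lower in both experiments at 6 h and again at 9 h, with medians of 0.44 and 0.45 that were -0.94 and -0.09 unscaled. Among all tested genes 26.91% were higher and 24.99% lower in both experiments at 6 h, and 28.1% and 29.5% at 9 h. SNAI2, a repressor of epithelial genes, read 144, 283 and 352 in experiment 1 and 143, 351 and 378 in experiment 2, a log2 change at 9 h of 1.35 ± 0.27 (limma adjusted p = 0.543, and 0.0605 with the experiment as a term). JUNB had 1.18 ± 0.29 and the bone factor RUNX2 1.08 ± 0.47, a sign that 2 of 3 tested RUNX2 probe sets had. Apart from the SMADs and E proteins, genes of these lists were named for a large change of 1 sign in both experiments, so their shared sign follows from that choice.

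Over the 13 tested regulators of ID transcription the median came to 0.32 (6 h) and 0.86 (9 h) on the log2 scale (-1.17 and 0.36 unscaled), with 6 higher and 2 lower in both experiments at 9 h. EGR1, a zinc finger factor, read 68.5, 569 and 615 in experiment 1 and 199.9, 697 and 1081 in experiment 2. ATF3, which with SMAD3 represses ID1 in epithelial cells, read 67.9, 187 and 483 in experiment 1 and 224, 585 and 939 in experiment 2. At 9 h their log2 changes were 2.80 ± 0.52 and 2.45 ± 0.72, with adjusted p = 0.543 and 0.591 by limma and 0.00890 each with the experiment as a term. KLF6 and KLF4, Krüppel-like factors, had 1.66 ± 0.43 and 1.18 ± 0.46 at 9 h, a sign shared by 2 of 3 tested KLF6 sets and 2 of 2 KLF4 sets.

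Of 18 tested genes tied to ID function 7 were higher and 6 lower in both experiments at 9 h, with a median of -0.11. CDKN2A, whose product p16 is held back by ID1, was read by a probe set of the cross-matching kind. CDKN2A read 43.8, 29.2 and 15.6 in experiment 1 and 54.7, 30.8 and 7.80 in experiment 2, the last at the floor. Its log2 change at 9 h was -1.80 ± 0.40 (limma adjusted p = 0.543). ETS2, an ETS factor that activates p16 and is blocked by ID proteins, had 1.62 ± 0.34 (limma adjusted p = 0.543), by 1.88 and 1.36. The angiogenesis inhibitor THBS1, repressed by ID1, had -1.22 and -0.40 in the experiments, and cyclin D1, CCND1, had -0.35 and -0.79. For THBS1, 4 of 5 tested probe sets had a mean change of that sign.

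**Figure D4:**
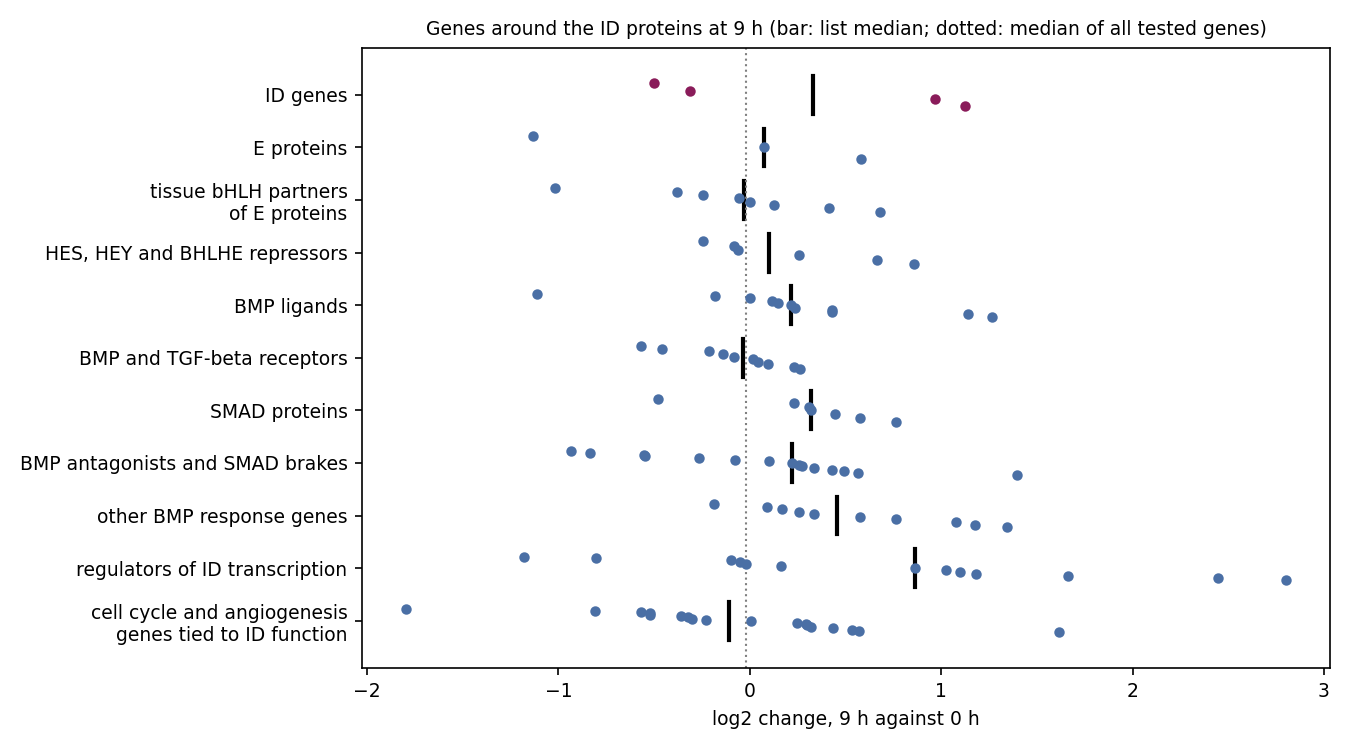
Log2 change at 9 h against 0 h (horizontal) of the 4 ID genes, each on its brightest tested probe set, and of the tested genes of the other lists (1 point per gene, spread vertically for legibility); black bars are list medians and the dotted line is the median of all tested genes (-0.02). The list of ID regulators has the highest median (0.86), with EGR1 at 2.80 and ATF3 at 2.45 at its right end, while ID1 and ID3 lie below zero and ID2 and ID4 near 1.

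By Pearson r over the 6 arrays, among 6719 probe sets with signal on every array and a range of at least 1 log2 unit, the genes most like ID3 were FAIM, an inhibitor of apoptosis (0.996), the Hsp70 relative HSPA13 (0.995) and the mitotic cyclin CCNB1 (0.991). Those most like ID1 were TXNL4A, a spliceosome component (0.986), the ABC family member ABCF2 (0.985) and the caveolin CAV3 (0.981). For ID2 they were CD55, a brake on complement (0.993), the AP-2 factor TFAP2C (0.990) and PARG, which degrades poly(ADP-ribose) (0.989). For the ID4 set they were LAD1 (0.988), the bile acid transporter SLC10A1 (0.988) and HHLA1 (0.981). With 6 arrays such values are common: 1.91% of these probe sets had an r above 0.9 with ID3, 0.759% with ID1, 0.863% with ID2 and 0.997% with ID4.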

How the data were processed

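The deposited values are linear intensities above 0, 1 for each array and probe set, and the labels name Affymetrix chips; the software and any scaling by the authors are not given in the sources used here. Values were quantile normalized over the 22283 probe sets, floored at the 25th percentile (12.7 units, 3.67 as log2) and put on a log2 scale. After leaving out 68 controls, 18360 probe sets with at least 2 arrays above the floor entered linear models with trended eBayes in limma 3.58.1 (R 4.3.3), 3 residual degrees of freedom, Benjamini-Hochberg over all of them, threshold 0.05, two-sided. The fit was run on simulated data with a smaller spread than the real arrays, large added changes and no difference between experiments. That run says nothing on how well changes are found at the real spread.

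Symbols came from the platform table, read through Entrez numbers for 19059 of 19071 probe sets with 1 symbol; 1043 had several and 2169 none. Per the labels each experiment used RNA of 1 batch, so its number pairs the arrays; deviations from group means correlated at 0.247, 0.336 and 0.391 between times. Named genes were every ID probe set, every tested SMAD and E protein, and of the other lists some of up to 4 with the largest change at 9 h and 1 sign in both experiments; likeness takes the 3 highest r per gene. Members and lists were chosen with earlier results of these data known. Alternatives were the block, the lot line, 2 scalings, 2 floors, no filter, no trend, and each array left out.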

Additional observations from a re-analysis of the deposited data

How the results depend on the processing

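With 5 ID probe sets in 3 comparisons, 14 alternatives gave 210 log2 changes, of which 190 kept their direction, 20 turned and 0 passed the threshold by limma (adjusted p from 0.140 to 1.00). With the replicate block (experiment as a term) 66 probe sets passed at 9 h against 0 h in place of 0, none of them of an ID gene, and the block changed no other call. Without a filter on low values 24, 12 and 18 probe sets passed at 6 h against 0 h, 9 h against 0 h and 9 h against 6 h in place of 0; the cause was not tested. With 1 array left out the counts stayed at 0.

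Without scaling between arrays 6 changes turned: at 6 h against 0 h ID1 was -1.25 and ID2 (201565_s_at) -1.10, at 9 h against 0 h ID2 (201566_x_at) was -0.034, and at 9 h against 6 h ID1 was 0.39, ID3 0.68 and ID4 0.50; the medians of all tested probe sets were then -1.34, -0.56 and 0.75. With the lot line as a block ID3 at 9 h against 6 h was 0.15; the cause was not tested.

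With 1 array left out, which leaves a group of 1 that is assumed to vary like the others, the changes at 6 h against 0 h ran from -0.42 to 1.00 for ID1, from -0.073 to 0.91 for ID2 (201565_s_at), from -1.62 to 0.66 for ID2 (201566_x_at), from -1.67 to 1.28 for ID3 and from 1.11 to 1.47 for ID4. At 9 h against 0 h they ran from -0.80 to 0.19 for ID1, from 0.44 to 1.51 for ID2 (201565_s_at), from -0.19 to 1.12 for ID2 (201566_x_at), from -1.61 to 0.64 for ID3 and from 1.01 to 1.24 for ID4. At 9 h against 6 h they ran from -1.32 to 0.11 for ID1, from 0.027 to 1.09 for ID2 (201565_s_at), from -0.20 to 2.09 for ID2 (201566_x_at), from -1.79 to 1.16 for ID3 and from -0.34 to 0.015 for ID4. The ends of these ranges against 0 h came without an induced array of experiment 1 or 2.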
